A study of Rattus norvegicus with 6 samples.

Results

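The lipid-sensing nuclear receptors of the rat renal cortex were examined with their coactivator: Ppara, Ppard, Pparg, Rxra, Esrra, Nr1h3, Nr1h4, Hnf4a and Ppargc1a. They were read by every array probe whose annotated transcript is a RefSeq transcript of 1 of these 9 genes, which gave 17 probes of the 61657 non-control probes, or 9 of the 45877 genes and transcripts that the array distinguishes. The genes were chosen by their role and by the measured log2 difference of Ppara between the groups, with the values of the others known, so their differences are given as a description of these 6 animals. Counts of calls among them stand beside the share over all genes, and nothing is read from those counts. All RNA was from renal cortex, and all rats were Sprague-Dawley (Crl:CD(SD)) males that were 5 weeks old when bought and were kept on a basal diet. In the NDMA group, 3 rats received N-nitrosodimethylamine (NDMA), a nitrosamine that cytochromes P450 turn into a DNA-methylating agent, at 4 mg/kg/day for 4 weeks. In the water control group, 3 rats received water for the same 4 weeks. Each animal was measured on 1 single-colour Agilent oligonucleotide array, and the study asked how the treatment altered gene expression in this tissue.

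Nuclear receptors are transcription factors whose activity is set by small lipophilic ligands or, for the orphan members, by coregulators. PPARs, LXRs and FXR bind DNA as heterodimers with a retinoid X receptor, and PGC-1 alpha is a coactivator that couples several of them to mitochondrial gene expression. In the kidney, PPAR alpha and HNF4 alpha are known from the proximal tubule, where fatty acids are the main fuel and where HNF4 alpha maintains the differentiated state of the epithelium.

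Between 43016 and 46248 probes per array were well above background, and 0 to 4 spots were saturated. All values are log2 processed signals minus the 75th percentile of their own array, so a level of 0 equals that percentile, and levels of different probes cannot be set against each other. All 17 probes of the receptors were well above background on all 6 arrays. NDMA animal 1 shared slide 1 with the 3 control animals, and NDMA animals 2 and 3 were on slide 2, which has another scan date, so for each gene the slide 1 value, NDMA animal 1 minus the control mean, is given beside the difference. After NDMA, 805 of 31915 genes and transcripts passed limma at an adjusted p under 0.05 in the upward direction and 152 in the downward direction. The transporter gene Slc34a1, which defines the proximal tubule, read 8.31, 8.17 and 8.29 in NDMA animals 1 to 3 and 8.50, 8.55 and 8.49 in the controls. The 16 leukocyte markers had a summed level of 6.48 to 6.71 in NDMA animals and of 5.28 to 5.57 in controls on the log2 scale. The 18 proximal tubule markers had a summed level of 11.10 to 11.31 in NDMA animals and of 11.45 to 11.57 in controls. These sums weigh the brightest probes most. In such bulk tissue, fewer cells of a type and less RNA per cell cannot be told apart.

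Ppara, the receptor that switches on fatty acid oxidation, was the member with the largest difference between the groups and was lower after NDMA on both of its probes. Pparg, the receptor of the same subfamily best known from adipocytes and macrophages, was higher after NDMA on both of its probes. Ppard, the broadly expressed member of the subfamily, was lower on average by a smaller amount, and its groups overlapped. Its NDMA animal 1, on the slide of the controls, lay at the controls. Over the probes of Ppard and of the other 6 genes the differences lay between -0.35 and 0.02.

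The promoter windows of Ppara and Pparg are shown because these genes differed in opposite directions. They run from 250 bases before to 50 bases after each annotated start, and are taken from RefSeq, assembly GRCr8, printed 5′ to 3′ along the gene's strand. Capitals mark matches to GGGCGG on either strand, the core letters of an Sp1-type GC box. The Ppara window is chr7:118712357-118712656 on the + strand, and Pparg has a first window at chr4:150096808-150097107 and a second at chr4:150154522-150154821, both on the + strand.
Ppara: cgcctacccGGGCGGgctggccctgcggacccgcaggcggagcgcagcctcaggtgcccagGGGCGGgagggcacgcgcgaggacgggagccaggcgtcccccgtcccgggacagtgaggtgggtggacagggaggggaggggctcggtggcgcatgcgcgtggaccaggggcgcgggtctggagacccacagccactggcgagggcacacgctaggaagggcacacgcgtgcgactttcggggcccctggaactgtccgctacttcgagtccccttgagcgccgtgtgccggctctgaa
Pparg, first start: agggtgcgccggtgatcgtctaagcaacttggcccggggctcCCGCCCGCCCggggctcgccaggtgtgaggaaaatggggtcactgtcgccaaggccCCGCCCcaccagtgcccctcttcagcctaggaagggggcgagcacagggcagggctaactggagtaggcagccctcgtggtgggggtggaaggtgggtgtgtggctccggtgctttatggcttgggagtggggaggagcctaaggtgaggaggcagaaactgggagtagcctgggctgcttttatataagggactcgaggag
Pparg, second start: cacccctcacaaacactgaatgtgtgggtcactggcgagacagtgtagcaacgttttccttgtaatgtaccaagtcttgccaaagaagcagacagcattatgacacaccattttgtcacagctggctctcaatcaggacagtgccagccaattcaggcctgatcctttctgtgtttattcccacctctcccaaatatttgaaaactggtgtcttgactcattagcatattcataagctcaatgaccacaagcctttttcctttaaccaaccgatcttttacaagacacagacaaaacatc
The Ppara window had a GC content of 73.7% with 32 CpG dinucleotides and 2 matches to GGGCGG, whereas the median over 33469 rat windows was 51.7% and 7 CpG. The first Pparg window had 64.7% GC, 14 CpG and 3 matches, the first pair overlapping each other. The second Pparg window had 43.7% GC, 3 CpG and no match. Windows were found for 7 of the 9 genes, 9 windows in all. GGGCGG was present in 6 of these 9 and in 33.1% of all windows. AGGTCA, the core letters of many nuclear receptor elements, was in 0 of the 9 windows and in 16.2% of all. A pair of AGGTCA cores in direct repeat separated by 1 base, the element that PPAR and HNF4 alpha bind, was in 0 of 9 and in 0.0538% of all. TTCNNNGAA, the letters of a STAT site, was in 0 of 9 and in 8.87% of all. TATAAA was in 1, the first Pparg window, and in 14.2% of all. That match lies after the start, at positions 28 to 33, and on the opposite strand. All motifs were searched on both strands, and the matches describe letters only.

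For Ppara, probe A_42_P509766 read -1.23, -0.66 and -0.88 in NDMA animals 1 to 3 and 0.04, 0.61 and 0.19 in control animals 1 to 3. The second Ppara probe, A_64_P051691, read -1.25, -0.52 and -0.94 in NDMA animals and 0.02, 0.63 and 0.23 in controls. On both probes every NDMA animal was below every control, NDMA animal 1 was the lowest and NDMA animal 2 the highest of its group, and control animal 2 the highest of all. The differences, NDMA minus control, were -1.21 ± 0.20 (SE, n = 3 per group) and -1.20 ± 0.23, which places the controls 2.31-fold and 2.29-fold above the NDMA animals. In NDMA animal 1, on the slide of the controls, the values were -1.52 and -1.54, larger than in the animals of slide 2, which lay -0.94 to -0.81 for animal 2 and -1.24 to -1.16 for animal 3 from the control mean. Over 18 processing settings the 2 probes ranged from -1.54 to -1.03 and stayed below 0.

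For Pparg, probe A_44_P123333 read -4.30, -3.63 and -3.53 in NDMA animals and -4.46, -4.91 and -4.84 in controls. The second probe, A_64_P229432, which is annotated to another Pparg transcript, read -1.99, -1.52 and -1.41 in NDMA animals and -2.26, -2.54 and -2.99 in controls. Every NDMA animal was above every control on both probes, but NDMA animal 1 was close to control animal 1. The differences were 0.91 ± 0.23 (1.88-fold) and 0.96 ± 0.23 (1.95-fold). NDMA animal 1, which had the lowest Ppara, was 0.44 and 0.61 above the control mean, against 1.10 and 1.08 for animal 2 and 1.20 and 1.19 for animal 3 on slide 2. Over the settings the first probe ranged from 0.26 to 1.15 and the second from 0.61 to 1.14. The size of the Pparg difference beyond that of NDMA animal 1 cannot be told apart from the slide.

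For Ppard, the brightest probe A_64_P051711 read -1.13, -1.49 and -1.56 in NDMA animals and -1.20, -1.20 and -0.88 in controls. NDMA animal 1 lay within the control range and the slide 2 animals below it. The probe A_42_P458711 read -2.61, -3.01 and -3.12 in NDMA animals and -2.66, -2.64 and -2.60 in controls. The probe A_43_P11733 read -3.28, -4.06 and -3.91 in NDMA animals and -3.65, -3.43 and -3.15 in controls. All 3 probes gave the same picture, with NDMA animal 1 at the controls and animals 2 and 3 lower. The differences were -0.31 ± 0.15, -0.28 ± 0.14 and -0.34 ± 0.23, and the slide 1 values were -0.04, 0.02 and 0.13. The Ppard difference cannot be told apart from the slide.

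**Figure D1:**
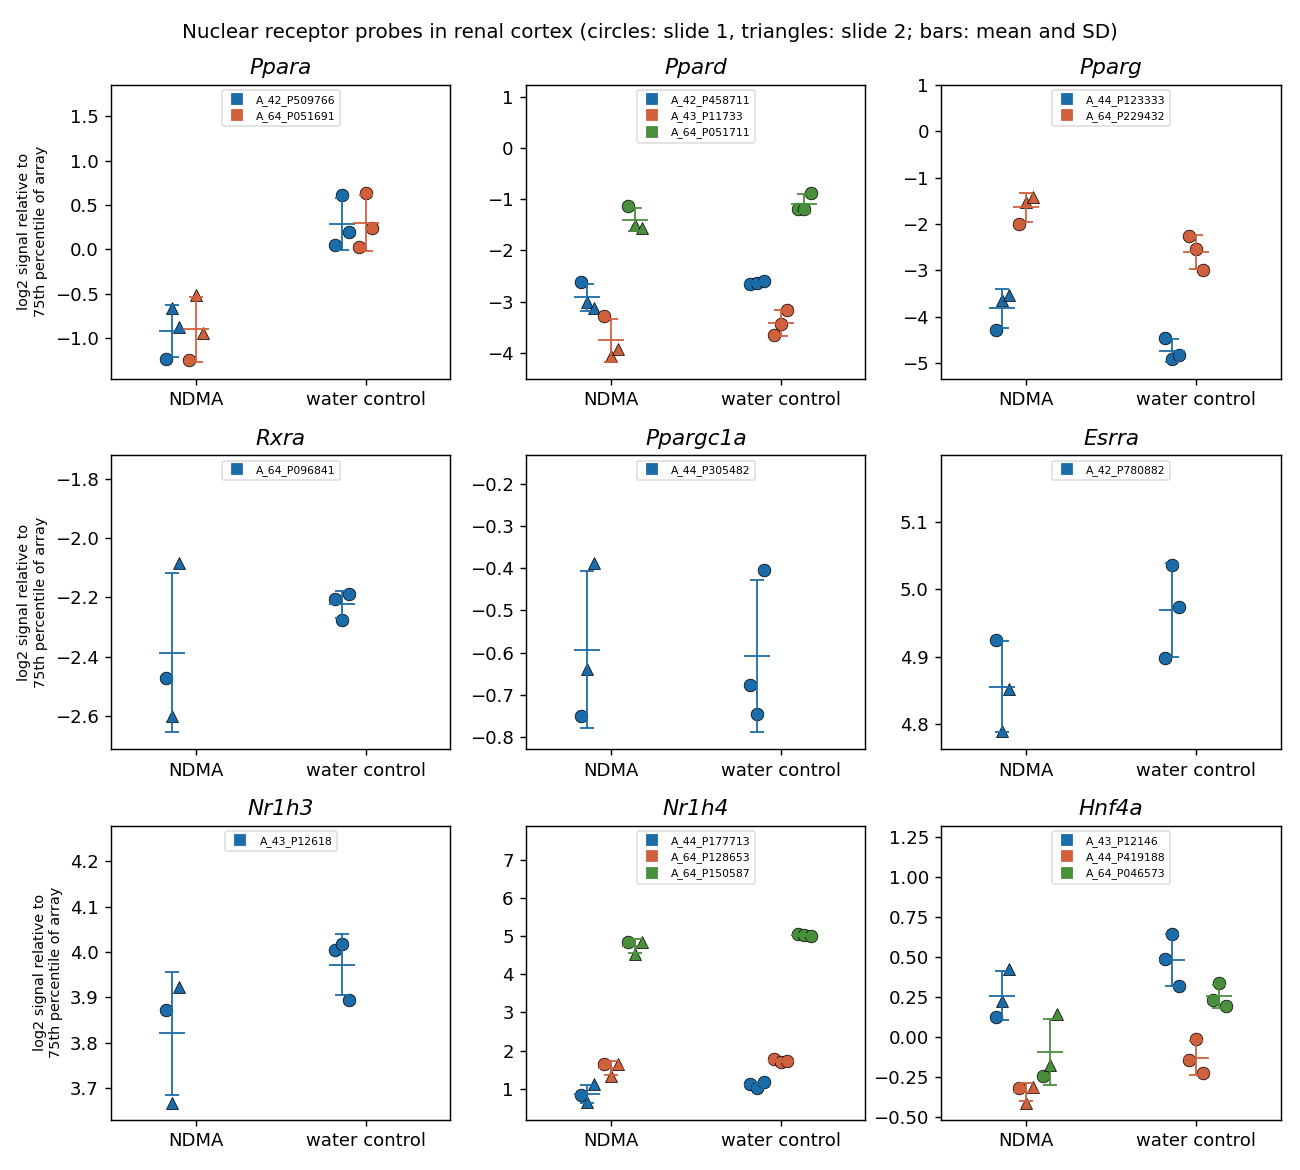
Log2 signal relative to the 75th percentile of the array for each probe of the 9 genes, with NDMA on the left and water control on the right of each panel. Each point is 1 animal, circles are slide 1 and triangles slide 2, colours are probes, and bars give the mean and SD of 3 animals. The groups separate fully on both Ppara probes (NDMA lower) and both Pparg probes (NDMA higher). They also separate, with NDMA lower, on Nr1h4 probes A_64_P128653 and A_64_P150587 and Hnf4a probes A_44_P419188 and A_64_P046573. Of all probes tested, 26.9% separated in either direction. The vertical axes differ between panels.

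Rxra, the retinoid X receptor with which PPAR, LXR and FXR pair, read -2.47, -2.60 and -2.09 in NDMA animals and -2.20, -2.28 and -2.19 in controls on its probe A_64_P096841. NDMA animal 3 was the highest of all and the other 2 NDMA animals the lowest. The difference was -0.16 ± 0.14, with -0.25 on slide 1. Among the other RXR genes, Rxrb differed by -0.01 ± 0.14 (limma, adjusted p = 0.979).

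Ppargc1a, which encodes PGC-1 alpha, read -0.75, -0.64 and -0.39 in NDMA animals and -0.68, -0.75 and -0.40 in controls on probe A_44_P305482. The groups covered the same range. The difference was 0.02 ± 0.14, with -0.14 on slide 1, and its sign varied over the settings, being below 0 in 7 of 18. Esrra, the orphan receptor ERR alpha that works with PGC-1 alpha on mitochondrial genes, read 4.92, 4.79 and 4.85 in NDMA animals and 4.90, 5.04 and 4.97 in controls on probe A_42_P780882. NDMA animal 1 lay among the controls. The difference was -0.11 ± 0.08, with -0.04 on slide 1.

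Nr1h3, the oxysterol receptor LXR alpha, read 3.87, 3.67 and 3.92 in NDMA animals and 4.00, 4.02 and 3.90 in controls on probe A_43_P12618. NDMA animal 3 was above control animal 3, so that the groups overlapped. The difference was -0.15 ± 0.10, with -0.10 on slide 1. Nr1h4, the bile acid receptor FXR, read 4.87, 4.55 and 4.85 in NDMA animals and 5.06, 5.04 and 5.02 in controls on its brightest probe A_64_P150587. Every NDMA animal was below the narrow control range, with animal 2 the lowest. The difference was -0.29 ± 0.11, with -0.18 on slide 1.

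The Nr1h4 probe A_64_P128653 read 1.64, 1.32 and 1.66 in NDMA animals and 1.77, 1.69 and 1.72 in controls. The probe A_44_P177713 read 0.84, 0.64 and 1.12 in NDMA animals and 1.11, 1.03 and 1.18 in controls. Animal 2 was again the lowest, and the groups overlapped on the second of these probes. Their differences were -0.19 ± 0.11 and -0.24 ± 0.13, with -0.09 and -0.27 on slide 1.

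Hnf4a, the receptor that maintains proximal tubule identity, read 0.13, 0.23 and 0.42 in NDMA animals and 0.49, 0.64 and 0.32 in controls on its brightest probe A_43_P12146. NDMA animal 3 was above control animal 3, and the others were below all controls. The probe A_44_P419188 read -0.32, -0.41 and -0.31 in NDMA animals and -0.14, -0.01 and -0.22 in controls. The probe A_64_P046573 read -0.25, -0.18 and 0.15 in NDMA animals and 0.24, 0.34 and 0.20 in controls. The groups did not overlap on these 2 probes. The differences were -0.22 ± 0.12, -0.22 ± 0.09 and -0.35 ± 0.12, and the slide 1 values were -0.35, -0.19 and -0.50.

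**Figure D2:**
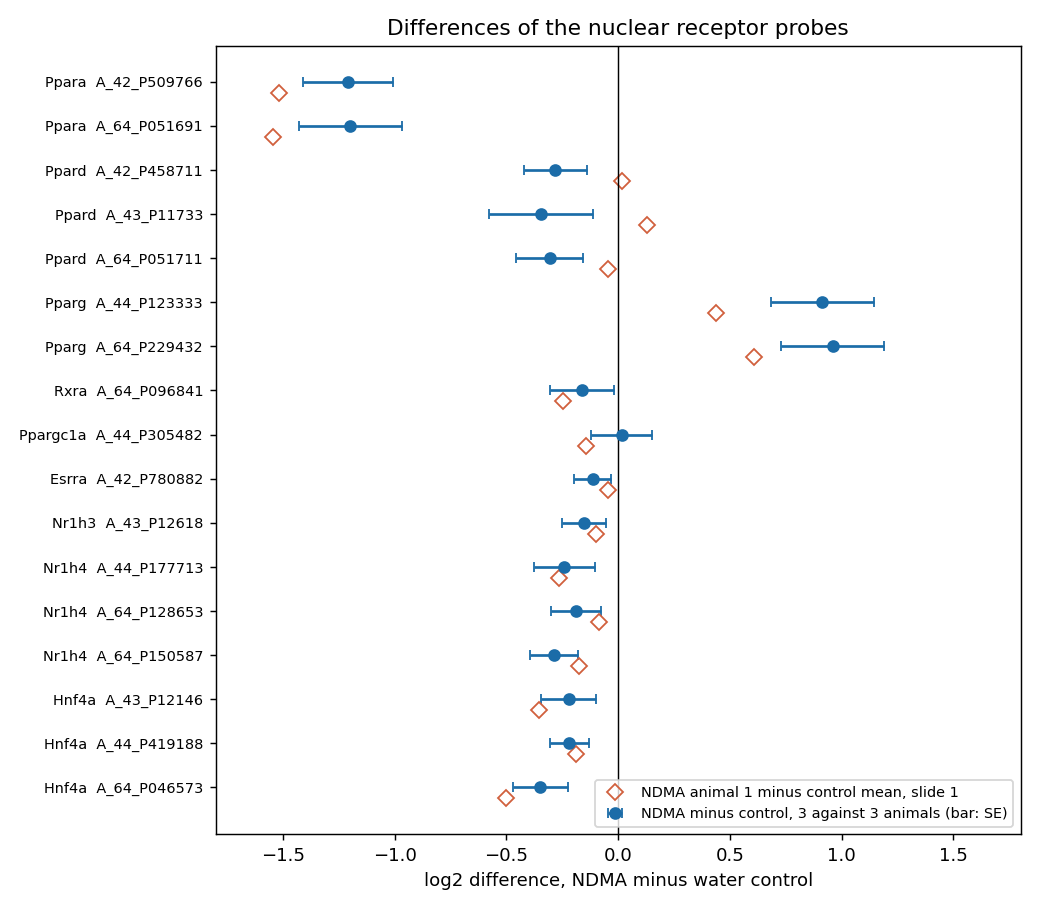
Log2 difference, NDMA minus water control, for the 17 probes. Filled circles with bars are the differences and SE over 3 against 3 animals, and open diamonds are NDMA animal 1 minus the control mean on slide 1; the Ppara probes lie near -1.2, the Pparg probes above 0.9 and the other 13 between -0.35 and 0.02, while the open diamonds of Ppard lie near 0.

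Over all 17 probes, 14 differences were below 0, where 58.1% of the 43118 probes tested were below 0. The groups did not overlap in 6 probes that were lower after NDMA, where 16.0% of all probes were so, and in 2 that were higher, where 10.9% were so (26.9% in either direction). By the brightest probe of each gene the median difference of the 9 genes was -0.16, against -0.05 for all 31915 genes and transcripts. In limma 0 of the 9 genes passed an adjusted p under 0.05, where 3.00% of all genes and transcripts passed (2.52% higher and 0.476% lower). At an unadjusted p under 0.05 were 3 of the 9 genes, where 18.8% of all genes and transcripts were. Tested as probes, 1 of the 17 passed, the Ppara probe A_42_P509766, where 2.99% of all probes passed (2.50% higher and 0.485% lower). That call was lost without the filter on dim probes, with the slide as a block, on slide 1 alone and without any 1 of the 6 animals, and without NDMA animal 1 the Pparg probe A_44_P123333 passed in its place. The contrast that gave these counts also chose the genes. The SD between animals had a median of 0.231 in the NDMA group and of 0.106 in the controls, and the NDMA SD was the larger in 12 of 17 probes. Several of these probes read the same gene. The NDMA animals were on slides 1 and 2 and the controls on slide 1 only, so the NDMA SD also holds any slide difference.

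By the root mean square difference of log2 profiles over the 6 animals, each centred on its own mean, the named genes nearest to Ppara among 12167 were Fam163a, Cacna1h, Kcnt2, Or8b54b and Or9k2b. Their distances were 0.117, 0.164, 0.186, 0.210 and 0.228. Cacna1h, a subunit of T-type calcium channels, differed by -1.02 ± 0.17 and passed in limma (adjusted p = 0.0324). Or8b54b, an olfactory receptor gene, differed by -1.20 ± 0.17 (adjusted p = 0.0211), and by -0.59 with normexp background correction. Its probe was well above background in 1 of 3 NDMA animals and in 3 of 3 controls. That probe entered the fit through the controls alone, so the size of its difference is uncertain. The differences were -1.07 ± 0.22 for Fam163a, -0.94 ± 0.24 for Kcnt2 and -1.05 ± 0.22 for Or9k2b, and these 3 did not pass. The probe of Kcnt2 was well above background in 1 of 3 NDMA animals and that of Or9k2b in 2 of 3, each in 3 of 3 controls. Both likewise entered the fit through the controls alone. The Cacna1h call was lost without any 1 animal (adjusted p = 0.0524 to 0.0931), and that of Or8b54b was kept without NDMA animal 1 or 3 (0.0376 and 0.0436) and lost without any other (0.0534 to 0.0761). The other receptors were farther from Ppara: Hnf4a was at rank 950, Nr1h4 at 1860, Ppard at 2306 and Pparg at 11631. As the genes were ranked by likeness to a profile with a large difference, their differences follow from the ranking.

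**Figure D3:**
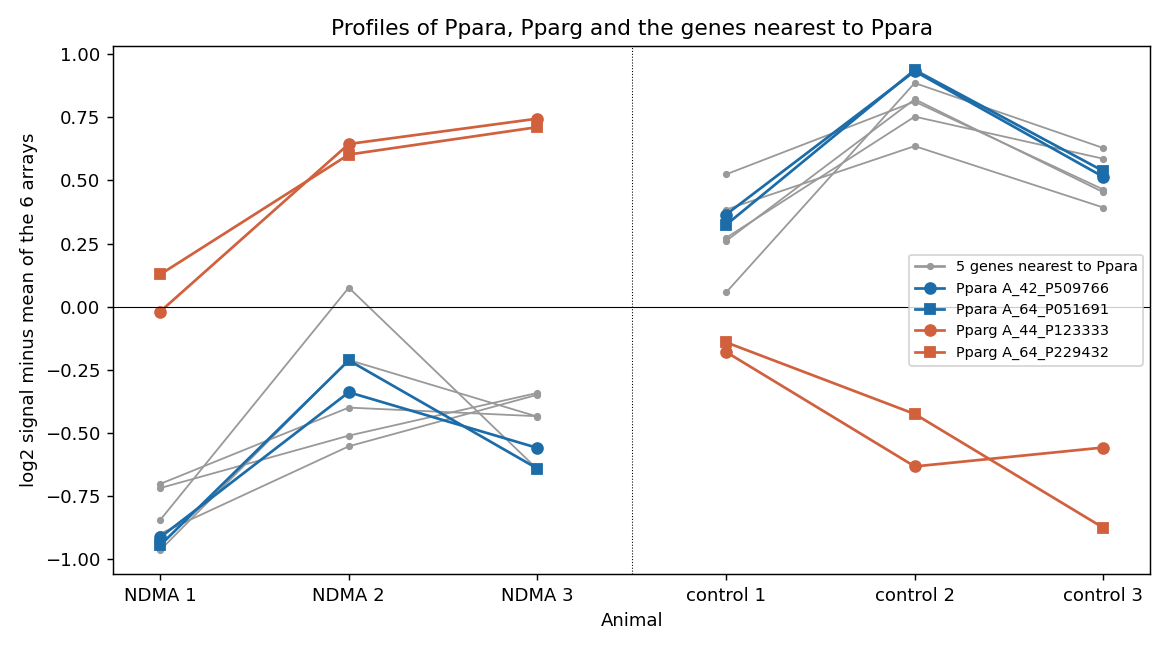
Log2 signal minus the mean of the 6 arrays (vertical axis) in each animal (horizontal axis) for the 2 Ppara probes, the 2 Pparg probes and the 5 named genes nearest to Ppara. Lines join the animals of a group as a guide only; Ppara and its 5 nearest genes lie lower in NDMA animals than in controls, Pparg lies higher, and NDMA animal 1 has the lowest value of its group for both receptors.

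The genes through which these receptors act were read from lists. No call in these lists, or in the cell marker lists, held with the slide as a block, a fit that rests on NDMA animal 1 against the controls. Among known PPAR alpha target genes, 35 of 36 were tested, and 1 rose and 0 fell in limma, with 1 higher and 9 lower at an unadjusted p under 0.05 (18.8% of all genes in either direction). Ucp2, a mitochondrial uncoupling protein found in many cell types, leukocytes included, was the gene that rose: it read 0.21, -0.01 and 0.29 in NDMA animals and -0.84, -0.69 and -0.40 in controls. Every NDMA animal was above every control, by 0.80 ± 0.14 (1.75-fold, adjusted p = 0.0409), with 0.85 on slide 1. The call was kept without control animal 3 (adjusted p = 0.0444) and lost without any other 1 animal (0.0769 to 0.130). The median of the list was -0.12, and 24 of 35 genes were below 0, where 58.7% of all genes and transcripts were. The groups did not overlap in 11 genes lower after NDMA, where 16.5% of all genes were so, and in 1 higher, where 11.1% were so.

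Pex11a, a peroxisome proliferation factor, differed by -0.65 ± 0.16 (limma, adjusted p = 0.103). Other targets often used to read PPAR alpha activity did not pass: Cpt1a, the entry enzyme of mitochondrial fatty acid oxidation, differed by -0.14 ± 0.35, and Cyp4a1, a fatty acid hydroxylase, by -0.14 ± 0.12. The inhibitors Pdk4, of pyruvate dehydrogenase, and Angptl4, of lipoprotein lipase, differed by 0.20 ± 0.17 and 0.10 ± 0.14. Adjusted p ran from 0.540 for Pdk4 to 0.859 for Cpt1a over these 4 genes. The median difference of the list from the control mean was -0.10 for NDMA animal 1 on slide 1, -0.19 for animal 2 and -0.08 for animal 3. Its mean log2 signal was 4.07, 3.82 and 3.97 in NDMA animals and 4.04, 4.09 and 3.93 in controls, and these means overlapped. Of the 18 proximal tubule markers, 1 fell in limma, where 0.476% of all genes and transcripts did, and 16 were below 0, where 58.7% were. The median of these markers was -0.29, against -0.05 for all genes and transcripts. Their part in the Ppara difference and in its target genes was not tested.

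Among genes under PGC-1 alpha and ERR alpha, 24 of 25 were tested, and 0 rose and 0 fell in limma. At an unadjusted p under 0.05, 0 were higher and 7 lower, beside 18.8% of all genes in either direction. Their median was -0.16, and 20 of 24 were below 0, where 58.7% of all genes and transcripts were. Cycs, cytochrome c, read 6.65, 6.59 and 6.62 in NDMA animals and 6.97, 7.07 and 6.80 in controls. Its groups did not overlap, and the difference was -0.32 ± 0.10 (adjusted p = 0.157). Uqcrfs1, the Rieske protein of complex III, differed by -0.29 ± 0.08 (adjusted p = 0.129). Ppargc1b, the coactivator closest to Ppargc1a, differed by 0.12 ± 0.17 and Esrrg, an estrogen-related receptor, by -0.24 ± 0.09 (adjusted p = 0.735 and 0.235).

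Among LXR target genes, 11 of 16 were tested, and 0 rose and 0 fell in limma. At an unadjusted p under 0.05, 0 were higher and 2 lower, beside 18.8% of all genes in either direction. Their median was -0.00. Apoe, the lipoprotein that carries cholesterol out of macrophages, differed by -0.37 ± 0.10 (adjusted p = 0.136), and Abca1, the cholesterol exporter, by -0.34 ± 0.20 (adjusted p = 0.406). Lpcat3, which remodels phospholipids, differed by -0.19 ± 0.07 (adjusted p = 0.239). Nr1h2, the gene of LXR beta, differed by -0.07 ± 0.08 (adjusted p = 0.624).

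Among FXR target genes, 12 of 16 were tested, and 0 rose and 0 fell in limma. At an unadjusted p under 0.05, 3 were higher and 2 lower, beside 18.8% of all genes in either direction. Their median was 0.46, and 3 of 12 were below 0, where 58.7% of all genes and transcripts were. These 3 are also on other lists: Aqp2 is a collecting duct marker here, and Fbp1 and Pck1 are among the HNF4 alpha targets. By animal the median of the list was 0.38 for NDMA animal 1 on slide 1, 0.77 for animal 2 and 0.03 for animal 3. Abcb11, the bile salt export pump, read -2.88, -1.97 and -3.04 in NDMA animals and -4.08, -5.38 and -5.74 in controls. All NDMA animals were above all controls, of which 2 of 3 were well above background, and the difference was 2.44 ± 0.48 (limma, adjusted p = 0.0587). It was 1.18 and passed with normexp background correction (adjusted p = 0.0421). Sdc1, a cell surface proteoglycan, differed by 0.62 ± 0.13 (adjusted p = 0.0635). Slc51a, a subunit of the basolateral bile acid transporter, read 3.46, 4.04 and 2.27 in NDMA animals and 2.34, 2.42 and 2.08 in controls. NDMA animal 3 lay within the control range, and the difference was 0.97 ± 0.43 (adjusted p = 0.286). Nr0b2, the corepressor SHP, differed by 0.27 ± 0.14 (adjusted p = 0.342).

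Among HNF4 alpha target genes, 25 of 26 were tested, and 0 rose and 1 fell in limma. At an unadjusted p under 0.05, 0 were higher and 16 lower, beside 18.8% of all genes in either direction. Lrp2, the endocytic receptor megalin, was the gene that fell: it read 6.01, 5.71 and 5.93 in NDMA animals and 6.41, 6.50 and 6.44 in controls. No animals overlapped, and the difference was -0.57 ± 0.10 (adjusted p = 0.0448), with -0.44 on slide 1. The call was lost without any 1 of the 6 animals (adjusted p = 0.0575 to 0.145). The median of the list was -0.27, and 22 of 25 genes were below 0, where 58.7% of all genes and transcripts were. In 17 the groups did not overlap with NDMA lower, where 16.5% of all genes were so. Cltrn, collectrin, and Slc34a1 differed by -0.36 ± 0.09 and -0.26 ± 0.08 (adjusted p = 0.102 and 0.173). Of the 26 genes, 7 are also among the proximal tubule markers, so these lists are not separate evidence.

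Among coregulators and partner receptors, 15 of 22 were tested, and 0 rose and 0 fell in limma, with 1 higher and 1 lower at an unadjusted p under 0.05 (18.8% of all genes in either direction), and their median was -0.02. Nrip1, a corepressor of nuclear receptors, differed by -0.02 ± 0.08 (adjusted p = 0.893), Prkaa2, the AMPK subunit that acts on PGC-1 alpha, by -0.33 ± 0.10 (adjusted p = 0.149) and Pprc1, a coactivator related to PGC-1 alpha, by 0.35 ± 0.13 (adjusted p = 0.233). Among the other nuclear receptors, 28 of 40 were tested, and 1 rose and 1 fell, with 1 higher and 7 lower at an unadjusted p under 0.05, against the same 18.8%. Esr1, estrogen receptor alpha, fell: it read -5.24, -5.62 and -5.59 in NDMA animals and -4.61, -4.61 and -4.71 in controls. The groups did not overlap, and the difference was -0.84 ± 0.12 (adjusted p = 0.0229). It was -0.35 with normexp, and the call was kept without NDMA animal 1 (adjusted p = 0.0200) and lost without any other 1 animal (0.0629 to 0.0902). Nr4a3, an inducible orphan receptor, rose (adjusted p = 0.0238). No control was well above background for it. Its probe entered the fit through the NDMA animals alone, so the size of its difference is uncertain. On the processed signals the NDMA mean was 1.92-fold above a floor, which is not a lower bound under other background corrections. That floor is a control mean in which each array counts with its Nr4a3 signal or its dimmest detected probe, whichever was brighter. With normexp the Nr4a3 difference was 0.07, and the call was kept without control animal 1 or 3 (adjusted p = 0.0413 and 0.0398) and lost without any other 1 animal (0.0621 to 0.0894).

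**Figure D4:**
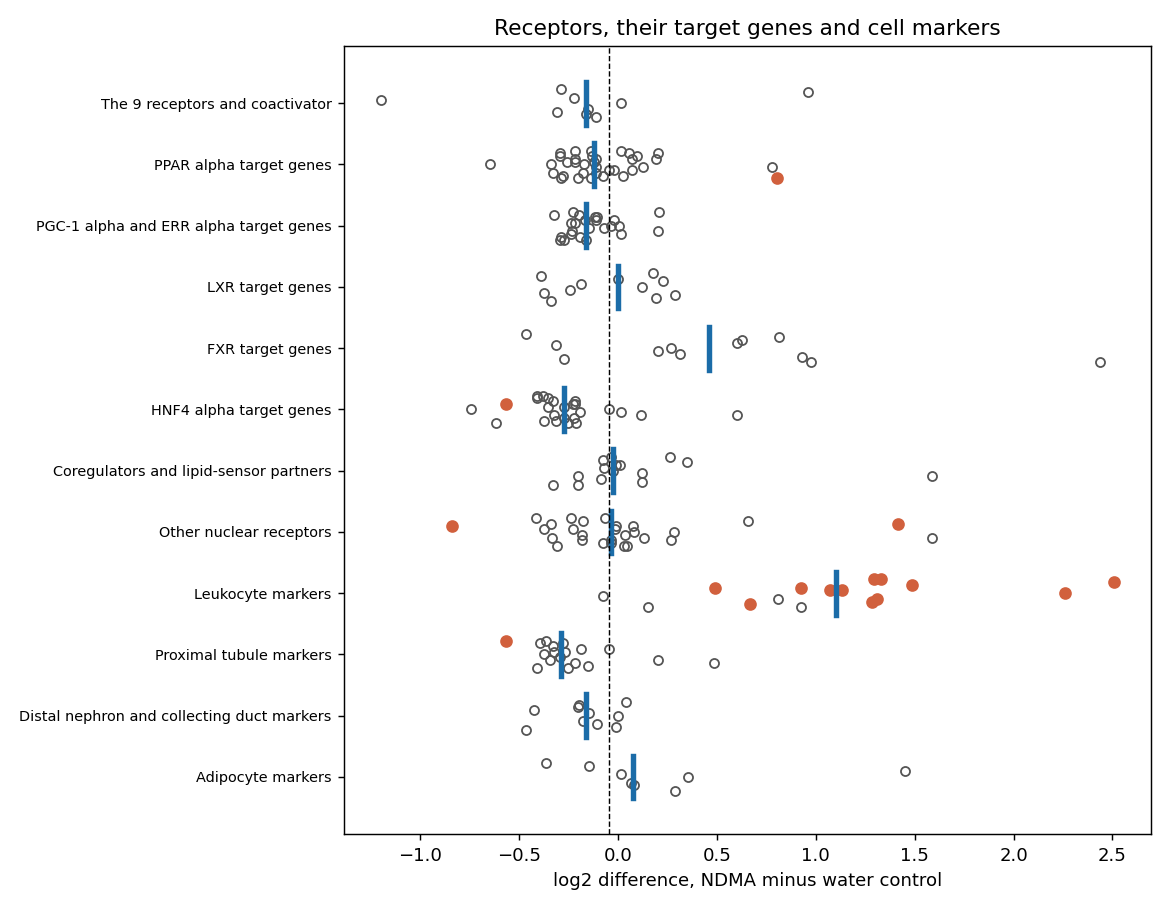
Log2 difference, NDMA minus water control, for each tested gene of the 9 members and of the 11 lists, by its brightest probe. Filled points passed an adjusted p under 0.05 in limma, open points did not, thick bars are list medians, and the dashed line at -0.05 is the median of all genes and transcripts; the receptor target lists lie mostly between -0.7 and 1.0, and 12 leukocyte markers passed, all higher.

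Markers of other cells were read beside Pparg, whose known sites of expression include macrophages and adipocytes. Of 16 leukocyte markers, 12 rose and 0 fell, with a median of 1.10, where 2.52% of all genes and transcripts rose and 0.476% fell. The 4 that did not pass were Cd8a (0.93), Itgam (0.81), Adgre1 (0.15) and Cd79b (-0.08), with adjusted p from 0.115 to 0.931 in limma. Ptprc, the pan-leukocyte antigen CD45, rose by 1.29 ± 0.12 and Cd68, a macrophage glycoprotein, by 1.48 ± 0.14 (limma, adjusted p = 0.00742 for both). C1qb, a complement subunit made by macrophages, rose by 1.33 ± 0.12 and Cd3d, a T cell receptor subunit, by 1.29 ± 0.12 with the same adjusted p. With 1 animal left out 7 to 10 of the 16 passed. Of 8 adipocyte markers tested of 10, 0 rose and 0 fell, with 1 at an unadjusted p under 0.05 (18.8% of all genes). Their median difference was 0.07. Their summed level was 2.77 to 2.98 in NDMA animals and 2.69 to 2.86 in controls. That sum rests mostly on the bright probe of Pnpla2 (mean 2.16 in NDMA animals and 2.08 in controls), so it says little about the dimmer markers. Adipoq, adiponectin, differed by 0.29 ± 0.13 (adjusted p = 0.283) and Cfd, complement factor D, by 1.45 ± 0.30 (adjusted p = 0.0692). The leukocyte median in NDMA animal 1 on slide 1 was 1.08, against 1.10 and 1.24 in animals 2 and 3, while Pparg was 0.44 to 0.61 above the control mean in animal 1 and 1.08 to 1.20 above it in the others. The part of these cells in the Pparg difference was not tested. The distal nephron and collecting duct markers, 10 of 12 tested, had a median of -0.16 with 0 passed in limma and 2 at an unadjusted p under 0.05 (18.8% of all genes), and Aqp2 and Aqp3, water channels of the collecting duct, differed by -0.46 ± 0.16 and -0.43 ± 0.12 (adjusted p = 0.199 and 0.134).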

How the data were processed

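Groups were taken from the sample titles (3 NDMA, 3 water control). The authors read the spots with Agilent Feature Extraction, with version 10.7 given in the submitters' processing notes and 10.7.1.1 in the files. Per the file headers, the processed intensity they deposited had background and a spatial trend removed within each array, and no scaling across arrays. The authors' deposited value table is a ratio of that intensity to its array's 75th percentile: on the log2 scale it differed by at most 0.00174 over values above 0.1. The direction and scale of that table are thereby known, with column medians of 0.115, 0.112 and 0.114 in NDMA animals and 0.112, 0.110 and 0.114 in controls. The array annotation names rn4, another build than the gene table, so no gene coordinates but those of the promoter windows (GRCr8) are given.

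Here the processed intensities were log2-transformed without a pseudocount, and each array's 75th percentile was subtracted (993 to 1053 on slide 1, 1310 and 1299 on slide 2). Spots with an outlier mark were set missing (18 values). A probe entered the fit if 1 group or both had it well above background on each of 3 arrays, which kept 43118. Genes were named through RefSeq accessions (15360 of 16372 matched) and read by their brightest probe. The two-sided test was that of limma 3.58.1 (R 4.3.3; lmFit and eBayes), with 4 residual degrees of freedom and a prior worth 2.36, and p-values were Benjamini-Hochberg adjusted over 31915 features or 43118 probes. An exact permutation test of 3 against 3 cannot go below p = 0.1, so none is given, and the number of arrays limits the precision. Replicates are separate animals, per the series' design text.

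The members and the gene lists were chosen with earlier results of these data known. Named genes are all members, up to 4 passing genes of each list by smallest p or otherwise the 2 smallest, a set of 24 genes named in any case where measured (Ncor1, Srebf1, Slc51b and Plin1 had no probe matched by name) and the 5 nearest to Ppara; some of these genes are not reported here. The fit was tested on simulated data. Alternatives varied the background correction, normalisation, filter, variance model, block, probe choice and animals.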

Additional observations from a re-analysis of the deposited data

How the results depend on the processing

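No named gene that passed limma changed sign in any setting run. The features that passed limma numbered 957 (84.1% higher), 371 without the filter on dim probes, 351 with the replicate block, 67 with the slide as a block, 0 on slide 1 alone (3502 at an unadjusted p under 0.05) and 364 to 749 with 1 animal left out. With normexp on median signals, chosen after seeing the data because the files hold no mean signal for the planned version, 1091 passed (66.7% higher). Of the 9 receptor genes 1 passed (Ppara) with normexp, with probes above background on all arrays, with a trended robust variance, with the mean over probes and with the replicate block, against 0 otherwise, 0 in each fit without 1 animal; the same contrast chose these genes, so the counts support nothing. Among PPAR alpha targets 2 passed with the trended variance and 0 without the filter, with the slide as a block, on slide 1 alone or with the replicate block, and 0 to 1 with 1 animal left out. Among HNF4 alpha targets and proximal tubule markers the counts were 4 and 3 with the trended variance, and 0 and 0 with quantile normalisation, without the filter, with probes averaged, with the slide as a block, on slide 1 alone, with the replicate block and without any 1 animal; normexp gave 2 proximal tubule markers. Among the other nuclear receptors 0 passed with normexp, without the filter, with the slide as a block and on slide 1 alone, 1 with the all-array filter and with the replicate block, and 0 to 1 without 1 animal. Among FXR targets 1 passed with normexp and with the trended variance, and 0 to 1 without 1 animal. With the trended variance 1 PGC-1 alpha target passed (Uqcrfs1), and with normexp 1 adipocyte marker (Cfd). Leukocyte markers numbered 7 without the filter, 0 with the slide as a block or on slide 1 alone, and 7 to 10 without 1 animal.

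Replicate numbers do not pair the animals: the correlations of deviations between same-numbered animals were 0.038, -0.048 and 0.025, so the numbers were taken as names only, and the replicate block is given for its counts above (351 features).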

Other observations

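Some genes on the lists varied more between animals of 1 group than between the groups, and these were picked after their values were seen. Fabp1, the liver fatty acid binding protein and a PPAR alpha target, read 1.13, -3.35 and -2.14 in NDMA animals, and averaged -2.23 ± 1.60 in controls (SD, n = 3). Ttr, transthyretin, an HNF4 alpha target, read 2.45, -4.52 and -1.54 in NDMA animals and -0.95, 0.38 and -4.84 in controls. Both were highest in NDMA animal 1. Rxrg, the third retinoid X receptor gene, differed by 1.59 ± 1.05 (limma, adjusted p = 0.448): control animal 1 read -1.46 and the other 5 animals 1.88 to 2.91. Thra, thyroid hormone receptor alpha, is given apart from these genes and was also picked after its values were seen. It differed by -0.41 ± 0.13 (limma, adjusted p = 0.170).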
